A study of Mus musculus with 3 samples.

Results

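CCL21 and CCL19 are chemokines that guide cells carrying the receptor CCR7, among them dendritic cells and naive T cells, towards and along lymphatic vessels. Lymphatic endothelium is the main source of CCL21 outside lymphoid organs, where it binds heparan sulfate on and around the vessel. Stromal cells of lymphoid tissue make both ligands. ACKR4 is an atypical receptor that takes up and degrades CCL19 and CCL21 without signalling through G proteins. In the mouse, CCL21 is encoded by several near-identical gene copies, and its known protein forms differ by a serine or a leucine.

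The genes described here are Gm1987 and Gm13304, the CCL21 copies that the tables list, with Ccl19, Ccr7 and Ackr4. They are 5 of 24091 genes and were found by symbol. Bulk RNA-seq was made from lymphatic endothelial cells of the large intestine of C57BL/6 mice, sorted by markers that included CD31, podoplanin and LYVE1. There is a single group of 3 libraries, replicates 1, 2 and 3, and no control. The sample labels name no genotype, age, sex or treatment, and the word Water in the names of the tables of all 3 libraries is not explained by them. They also do not tie the libraries to animals, and the spread may be technical. Values are in TPM, a level corrected for transcript length and library size, given by library and as mean ± SD (n = 3). The genes were chosen by symbol with their TPM values in these libraries known, so their levels are descriptions and carry no test.

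The labelled cell type was set against its markers first. All 11 lymphatic identity genes reached 1 TPM in every library, against 53.4% of all genes. Their list medians were 87.0, 81.7 and 50.2 TPM in replicates 1, 2 and 3. Lyve1 averaged 489.6 ± 156 TPM, Mmrn1 336 ± 114 TPM and Prox1, the transcription factor that specifies lymphatic endothelium, 3.58 ± 1.12 TPM. The libraries also held 8 of 8 epithelial genes at a list median of 863, 1077 and 994 TPM, and 8 of 8 macrophage genes at 23.2, 18.0 and 53.9 TPM. Blood endothelium, which also carries CD31, was represented by 8 of 8 genes at 116, 99.5 and 87.3 TPM, above the lymphatic median in every library. This list was uneven: Aqp1, Car4, Gpihbp1, Emcn and Plvap averaged 107 to 199 TPM, but Vwf, Ackr1 and Flt1 only 5.76 to 10.7 TPM. Its median therefore does not measure how much RNA came from blood endothelium. The 10 fibroblast genes had medians of 14.6, 11.1 and 35.1 TPM. A level below is therefore that of a mixed library, and fewer cells of a type cannot be told apart from less RNA per cell.

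The copies are shown first as sequence, because their likeness limits what their single values mean. The sequence of Gm1987 was not used here, so the bases below compare Gm13304 with copies that the tables do not list, and Gm1987 is compared by exon lengths only. RefSeq (GRCm38.p6) holds 7 CCL21 genes on chromosome 4, of which the tables list 2 and do not list 5, Ccl21a, Ccl21b, Ccl21c, Ccl21d and Gm10591. In GENCODE M21 the coding sequences of Ccl21a, Ccl21b, Ccl21d, Gm10591 and Gm13304 have 402 bases each. Those of Ccl21b, Ccl21d, Gm10591 and Gm13304 are identical, and they differ from Ccl21a at 2 positions, T84A and C194T, counted from 1 at the first base of the start codon with the Ccl21a base first. Position 194 is base 2 of codon 65 and position 84 is base 3 of codon 28. The 41 coding bases around each position are printed for Ccl21a and Gm13304, with the differing base in capitals.
Ccl21a, coding bases 64 to 104: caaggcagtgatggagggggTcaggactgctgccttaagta
Gm13304, coding bases 64 to 104: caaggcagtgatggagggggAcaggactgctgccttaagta
Ccl21a, coding bases 174 to 214: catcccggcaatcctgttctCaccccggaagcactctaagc
Gm13304, coding bases 174 to 214: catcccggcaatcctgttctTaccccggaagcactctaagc

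Of all 50-base windows of the coding sequence, 71.7% were identical between Gm13304 and Ccl21a, and of all 100-base windows 39.3%. A read that lies in such a window fits both genes. How reads that fit several copies were counted is not given in the sources used here, so the single values of the copies are uncertain and their sum is given beside them.

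The upstream regions of the copies are as alike. Over the 250 bases before the RefSeq start, Gm13304 differs from Ccl21a at T141C and T143C, as does Gm10591, and Ccl21d at T141C alone. Positions count from 1 at the first of these 250 bases in Gm13304, with the Ccl21a base first. The stretch from base 122 to base 162 is printed for 4 copies, with the differing positions in capitals.
Ccl21a, minus strand, chr4:42774079-42774119: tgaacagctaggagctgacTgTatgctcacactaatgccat
Ccl21d, plus strand, chr4:41903484-41903524: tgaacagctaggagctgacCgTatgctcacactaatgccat
Gm10591, plus strand, chr4:42611994-42612034: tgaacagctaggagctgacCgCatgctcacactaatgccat
Gm13304, plus strand, chr4:42114658-42114698: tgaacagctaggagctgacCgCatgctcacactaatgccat

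The whole region of Gm13304 (RefSeq, GRCm38.p6, plus strand, chr4:42114537-42114786) shows what these copies share, with the TATA-like letters CATAAA in capitals.
Gm13304 upstream region: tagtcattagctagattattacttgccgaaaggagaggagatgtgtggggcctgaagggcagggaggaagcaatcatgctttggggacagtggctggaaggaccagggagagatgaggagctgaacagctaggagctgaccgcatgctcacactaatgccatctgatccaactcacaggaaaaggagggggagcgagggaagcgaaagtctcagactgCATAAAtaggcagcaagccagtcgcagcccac

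The letters CATAAA, searched after the sequence was seen, begin 32 bases before the start in Gm13304, Ccl21d and Gm10591 and 31 bases before it in Ccl21a. On the gene's own strand, as in these copies, they are found in 5.98% of 32851 windows of this length, and on either strand in 10.8%. Both shares count a match at any position. The letters CATAAA also lie 190 bases before the Ccl19 start, on its own strand. TATAAA was found in 12.4% of windows on either strand and in 7.59% on the gene's own strand. It was present in the Ackr4 window, on its own strand, and in none of the windows of the 4 CCL21 copies or of Ccl19. The NF-kB consensus, found in 3.90% of windows, was absent from all 6 windows, searched on both strands. The motifs do not overlap in these windows, and a match of letters is not evidence of binding.

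Gm1987 (Entrez 100504362) is not placed on the assembled chromosome 4 but on a chromosome 4 scaffold, where GENCODE M21 gives it bases 121048 to 121713 on the minus strand. The GENCODE record linked to its Entrez ID carries the gene name Ccl21a. Its coding exons, without the stop codon, have 67, 121, 183 and 28 bases, the same lengths as those of Ccl21a and Gm13304. This record ends at the stop codon and has 402 exon bases, against 837 for Gm13304 and 870 for Ccl21a. Since TPM divides by length and the annotation used is not given, the ratio between the copies also depends on the lengths that were used. Gm13304 (Entrez 100504346) lies on chromosome 4, 42114787 to 42115917.

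Both CCL21 copies were among the most abundant transcripts of these libraries. Gm1987 stood at 10542, 8096 and 4258 TPM in replicates 1, 2 and 3, a mean of 7632 ± 3167 TPM, and ranked 2, 2 and 15 among the 24091 genes. Gm13304 stood at 3186, 2420 and 1343 TPM, a mean of 2316 ± 926 TPM, and ranked 42, 54 and 131. Both copies were highest in replicate 1 and lowest in replicate 3, and the lowest value of Gm1987 lay above the highest of Gm13304.

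Summed, the copies gave 13727, 10516 and 5601 TPM in replicates 1, 2 and 3, or 1.37%, 1.05% and 0.560% of all TPM. The highest library was 2.45-fold above the lowest. While this sum varied, the share of Gm1987 in it hardly did, at 76.8%, 77.0% and 76.0%. The ratio of Gm1987 to Gm13304 was 3.31, 3.35 and 3.17, and its log2 averaged 1.71 ± 0.04. The copies thus kept nearly the same proportion in libraries that differed in their total. The proportion and its constancy may both depend on how shared reads and lengths were handled, so the copies cannot be read as independent observations.

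The unlisted copies can hold little TPM if the tables were not rescaled after rows were left out. The table sums fell short of 1000000 TPM by 61.0, 92.9 and 104 TPM in replicates 1, 2 and 3, which bounds what all unlisted genes together could hold in that case. Whether the tables were rescaled is not given in the sources used here. Of the neighbouring genes, Il11ra1, a receptor subunit for interleukin 11, averaged 41.4 ± 8.22 TPM. Ccl27a, a gene of the skin chemokine CCL27, stood at 11.1, 11.6 and 10.3 TPM, and Ccl27b at 3.50, 2.43 and 2.47 TPM. Gm13308, which RefSeq now calls Gm21953, was at 12.8, 10.1 and 6.79 TPM. Il11ra2 was not listed, nor were Gm13305 and Gm13306.

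Ccl19 (Entrez 24047, chromosome 4, 42754525 to 42756365), the other CCR7 ligand, was present at a far lower level. It stood at 5.96, 4.49 and 3.77 TPM in replicates 1, 2 and 3, a mean of 4.74 ± 1.11 TPM. The summed CCL21 copies exceeded it 2304-fold, 2341-fold and 1486-fold. Ccl19 lay at percentiles 25.7, 16.0 and 12 of the genes at 1 TPM or more in all libraries, whereas Gm1987 lay at percentiles 99.98, 99.98 and 99.88. Like the copies, it was highest in replicate 1 and lowest in replicate 3. RefSeq also holds a further gene with Ccl19 among its synonyms, Gm2023, and 3 Ccl19 pseudogenes, none of them listed, so reads of Ccl19 could be shared as well.

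Ackr4 (Entrez 252837, chromosome 9, 104097682 to 104126643), the scavenger of both ligands, stood at 2.26, 3.57 and 3.31 TPM in replicates 1, 2 and 3, a mean of 3.05 ± 0.69 TPM. It was lowest in replicate 1, where the CCL21 copies were highest. The other chemokine scavengers Ackr3, which binds CXCL12 and adrenomedullin, and Ackr2, which binds inflammatory CC chemokines, were higher, at 140.4 ± 33 and 25.8 ± 8.27 TPM. Ackr4 is known to mark a submucosal fibroblast type of the mouse gut as well as some lymphatic endothelium. All 10 fibroblast genes were above 0, with sums of 388, 316 and 649 TPM in replicates 1, 2 and 3. Of them 9 were highest in replicate 3, against 40.5% of genes at 1 TPM or more in all libraries. The exception was Cd81, the highest of the 10, at 209, 192 and 207 TPM, a large part of each sum. Among the lower genes, Pdgfra stood at 1.48, 1.31 and 5.52 TPM and Pi16 at 3.66, 1.61 and 11.6 TPM. Every fibroblast gene but Grem1 was lowest in replicate 2, the library where Ackr4 was highest. Grem1, at 0.641, 0.699 and 0.870 TPM, was lowest in replicate 1 like Ackr4, but highest in replicate 3. The part of fibroblasts in the Ackr4 level was not tested.

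Ccr7 (Entrez 12775, chromosome 11, 99144199 to 99155077), the signalling receptor, was near the floor except in replicate 3. It stood at 0.0535, 0.141 and 1.11 TPM in replicates 1, 2 and 3, a mean of 0.435 ± 0.587 TPM. The highest library was 20.8-fold above the lowest, and without replicate 3 the mean was 0.0972 TPM. TPM carries no depth, but low values of genes with a single transcript fell on regular steps. The steps put 1 TPM on 1000 effective bases at about 32.2 fragments in replicate 1, 28.4 in replicate 2 and 26.4 in replicate 3. On that estimate Ccr7 rested on 3, 7 and 52 fragments, so its values in replicates 1 and 2 are imprecise. Ccl19 rested on about 112, 75 and 57 fragments and Ackr4 on 183, 255 and 218, both with the longest GENCODE transcript.

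**Figure D1:**
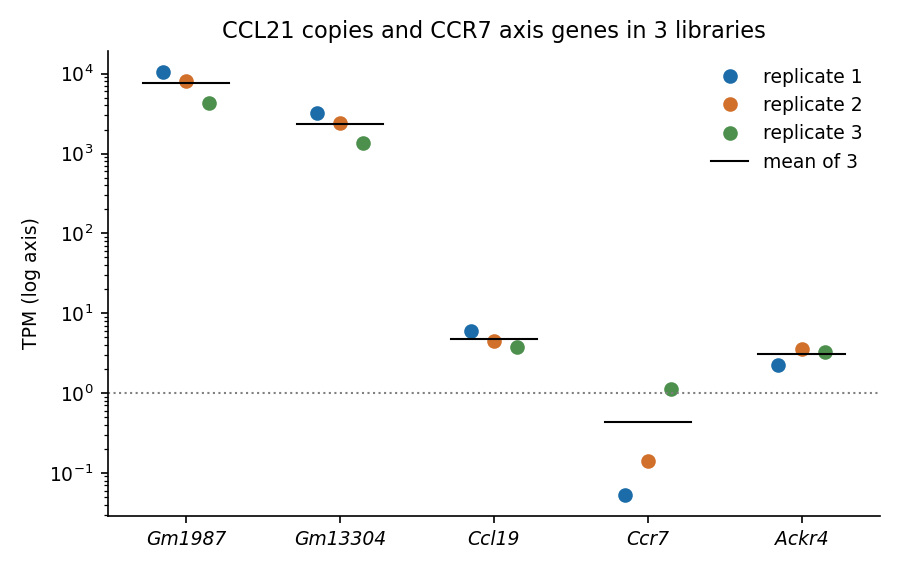
TPM of the 5 genes (log axis) in each of the 3 libraries, with points for libraries, a bar for the mean and a dotted line at 1 TPM. Both CCL21 copies lie above 1000 TPM in every library, Ccl19 and Ackr4 lie between 2.26 and 5.96 TPM, and Ccr7 passes 1 TPM in replicate 3 only.

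In order of mean level the genes were Gm1987, Gm13304, Ccl19, Ackr4 and Ccr7. This order held within each of the 3 libraries. Ccl19 and Ackr4, neighbours in it, did not differ beyond their spread: Ccl19 minus Ackr4 was 3.70, 0.92 and 0.46 TPM, a mean of 1.69 ± 1.75 TPM. Ackr4 minus Ccr7 was 2.21, 3.43 and 2.19 TPM, a mean of 2.61 ± 0.71 TPM, which is larger than its spread. Of the 5 genes, 4 reached 1 TPM in all 3 libraries, against 53.4% of all genes in the tables.

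Few genes were as low in replicate 3 as the copies. Replicate 3 was lowest for 22.9% of the 12862 genes at 1 TPM or more in all libraries, and 11.8% were both highest in replicate 1 and lowest in replicate 3. Only 54 of these genes, or 0.42%, had in replicate 3 at most 0.5 times the mean of the other 2 libraries, a limit set after the values were seen. Gm1987 had 0.457 times and Gm13304 0.479 times that mean and belong to the 54, while Ccl19 had 0.721 times. The rule that chose the genes used the same values, so this is a description.

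Lymphatic genes were also lower in replicate 3, with 10 of the 11 at their lowest there. The ratio of the summed copies to the lymphatic list median, on the log2(TPM + 1) scale, was 7.29, 6.99 and 6.77 in replicates 1, 2 and 3, a mean of 7.02 ± 0.26. Without the sort markers in the list the mean was 7.67. To Lyve1 the copies stood 25.2-fold, 17.2-fold and 17.9-fold higher, and to Mmrn1 35.6-fold, 25.2-fold and 27.2-fold. The copies exceeded the epithelial gene Epcam 12.5-fold, 9.02-fold and 4.83-fold. Blood endothelial genes did not share a pattern: Plvap, at 88.2, 53.4 and 178 TPM, was highest in replicate 3, while Gpihbp1 (193, 176 and 88.9 TPM), Emcn (156, 146 and 85.7 TPM) and Aqp1 (210, 205 and 184 TPM) were lowest there like the copies. Between replicates 1 and 2, whose lymphatic list medians were close, the sum of the copies still differed by 3211 TPM.

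The deviations of the libraries set the genes side by side with the marker lists. On the log2(TPM + 1) scale, replicate 3 deviated from the mean of the 3 libraries by -0.74 for Gm1987, -0.70 for Gm13304 and -0.25 for Ccl19. The median deviation there was -0.48 for lymphatic genes and 0.10 for epithelial genes. It was 0.94 for fibroblast genes, 0.88 for macrophage genes and 0.78 for blood endothelial genes, of which 5 of 8 were highest and 3 of 8 lowest in replicate 3. Ccr7 deviated by 0.63 in replicate 3 and Ackr4 by 0.11. The added 1 TPM shrinks the deviation of Ccr7, which spanned 20.8-fold in TPM, so its size cannot be set against those of the lists. The part that these marker genes have in the differences between libraries was not tested.

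**Figure D2:**
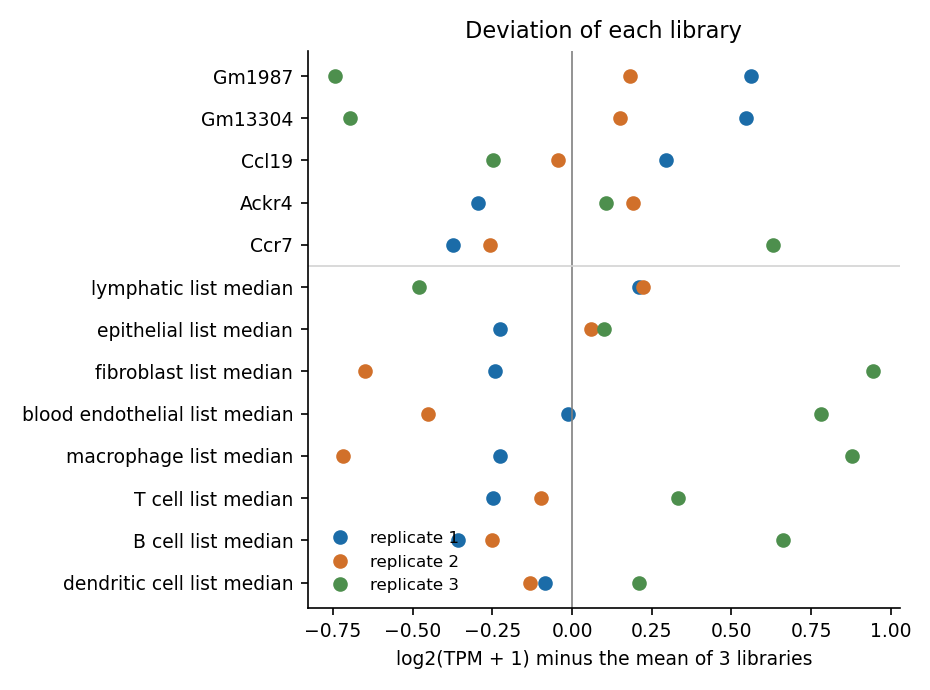
Deviation of each library from the mean of the 3 libraries on the log2(TPM + 1) scale, for the 5 genes (above the line) and for the median gene of 8 marker lists (below it). In replicate 3 the CCL21 copies deviate by -0.74 and -0.70, Ccl19 by -0.25 and the lymphatic median by -0.48. Ccr7, Ackr4 and every other list median shown are above 0 there. The added 1 TPM shrinks the deviations of low genes, above all that of Ccr7.

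Cells that carry CCR7 were looked for beside the receptor itself. The 9 T cell genes measured summed to 8.27, 10.5 and 18.7 TPM in replicates 1, 2 and 3, and 8 of them were highest in replicate 3. They were led by Tcf7 (4.67 ± 1.14 TPM), Cd3g (1.77 ± 1.10 TPM), Cd4 (1.71 ± 0.54 TPM), Cd3d (1.44 ± 0.525 TPM) and Cd3e (0.876 ± 0.810 TPM). The 6 B cell genes summed to 5.43, 6.61 and 20.8 TPM, and all 6 were highest in replicate 3. They were led by Cd79a (4.57 ± 2.97 TPM) and Cd79b (3.29 ± 3.39 TPM), with Ms4a1, Pax5 and Cxcr5 at 1.41 ± 1.41, 0.870 ± 0.613 and 0.577 ± 0.0605 TPM. Replicate 3 was the highest library for 40.5% of genes at 1 TPM or more in all libraries. Only 4 of the 9 T cell genes and 2 of the 6 B cell genes reached that level, so this share describes mostly higher genes.

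Dendritic cell genes were mostly low. The 15 genes summed to 80.1, 84.1 and 96.7 TPM in replicates 1, 2 and 3, of which Irf8 (49.9 ± 8.74 TPM) and Fscn1 (19.8 ± 2.98 TPM) took most, and both are also made by other cells. Cd83 averaged 6.82 ± 1.58 TPM, Cd40 1.84 ± 0.38 TPM and Zbtb46, a factor of conventional dendritic cells, 1.71 ± 0.15 TPM. Itgax stood at 0.936, 0.491 and 2.02 TPM and Flt3 at 0.0357, 0.101 and 0.253 TPM, both highest in replicate 3 like Ccr7. Of the 15 genes 9 were highest in replicate 3, while Fscn1, Cd40, Ccl17 and Ccl22 were highest in replicate 1 and Zbtb46 and Clec9a in replicate 2. Ccl17 and Ccl22, chemokines of activated dendritic cells, were listed at 0 in replicate 2, and Ccl22 stood at 1.11 TPM in replicate 1 and 0.0471 TPM in replicate 3. No other gene of the T, B and dendritic cell lists was at 0 in any library. The part of these cells in the Ccr7 level was not tested.

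Of the genes through which CCR7 signals, 13 of 15 measured reached 1 TPM in all libraries, against 53.4% of all genes. These signalling genes are general genes of most cells. The G protein genes Gnai2 (252, 252 and 245 TPM in replicates 1, 2 and 3), Gnb1 (198 ± 10.2 TPM) and Gnai3 (74.0 ± 11.6 TPM) and the GTPase gene Rhoa (267 ± 5.56 TPM) were highest. The receptor kinase genes Grk2 and Grk6 averaged 59.0 ± 7.73 and 47.8 ± 6.65 TPM. Arrb1 and Arrb2, the arrestins that bind the phosphorylated receptor, averaged 25.8 ± 4.30 and 8.35 ± 1.80 TPM. Stk4 stood at 14.4 ± 2.64 TPM, Gng2 at 8.55 ± 1.61 TPM, Gnai1 at 3.94 ± 0.579 TPM and Pik3cg at 1.40 ± 0.30 TPM. Dock2, a leukocyte activator of Rac needed for migration to these chemokines, stood at 0.804, 0.656 and 2.21 TPM in replicates 1, 2 and 3, highest where Ccr7 was highest. St8sia4, whose enzyme adds polysialic acid to CCR7, averaged 2.23 ± 0.490 TPM, and the related St8sia2 stayed below 1 TPM in all libraries at 0.0465 ± 0.0502 TPM.

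The lymphotoxin receptor and non-canonical NF-kB pathway drives the CCL21 and CCL19 genes in lymphoid stroma. Of the 13 genes listed for it, 11 reached 1 TPM in all libraries, against 53.4% of all genes. Ltbr, the receptor, averaged 89.9 ± 8.48 TPM. Its downstream genes Relb (40.2 ± 0.30 TPM), Nfkb1 (40.0 ± 3.48 TPM), Rela (32.7 ± 3.27 TPM), Chuk (23.1 ± 6.09 TPM) and Nfkb2 (22.6 ± 4.74 TPM) followed. Traf2 and Traf3, which restrain the kinase NIK, averaged 14.7 ± 1.14 and 6.51 ± 2.07 TPM, and Map3k14, which encodes NIK, 4.28 ± 0.928 TPM. The ligand genes were low: Ltb averaged 3.89 ± 2.10 TPM, Lta 0.188 ± 0.108 TPM and Tnfsf14 0.104 ± 0.0912 TPM. Tnf, also among the 13 genes but not a ligand of this receptor, averaged 3.20 ± 0.609 TPM. The part of this pathway in the level of the copies was not tested.

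Heparan sulfate, to which CCL21 binds, is made by enzymes of which the 7 genes listed here all reached 1 TPM in every library. Hs6st1 averaged 39.7 ± 9.65 TPM, Ext2 38.2 ± 4.65 TPM, Ext1 23.1 ± 2.63 TPM, Glce 10.6 ± 2.28 TPM, Ndst1 10.2 ± 4.68 TPM, Ndst2 10.02 ± 1.77 TPM and Hs2st1 8.26 ± 0.752 TPM. Of the core proteins, Sdc4 averaged 142 ± 12.9 TPM, Sdc1 127 ± 15.4 TPM and Hspg2, the perlecan gene, 24.9 ± 3.98 TPM. Plasmin can cut CCL21 free of this bound state. Its precursor gene Plg was at 0.0509 ± 0.0335 TPM, the activator genes Plau and Plat at 15.8 ± 1.02 and 5.18 ± 1.40 TPM and the receptor gene Plaur at 22.3 ± 3.41 TPM. Over the 3 groups of partner genes, 37 of 42 reached 1 TPM in all libraries with a median of 15.8 TPM, against 53.4% and a median of 2.41 TPM over all genes. Most of these genes are widely expressed, and the epithelial genes of these libraries were abundant, so the levels do not assign a partner gene to vessel cells.

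**Figure D3:**
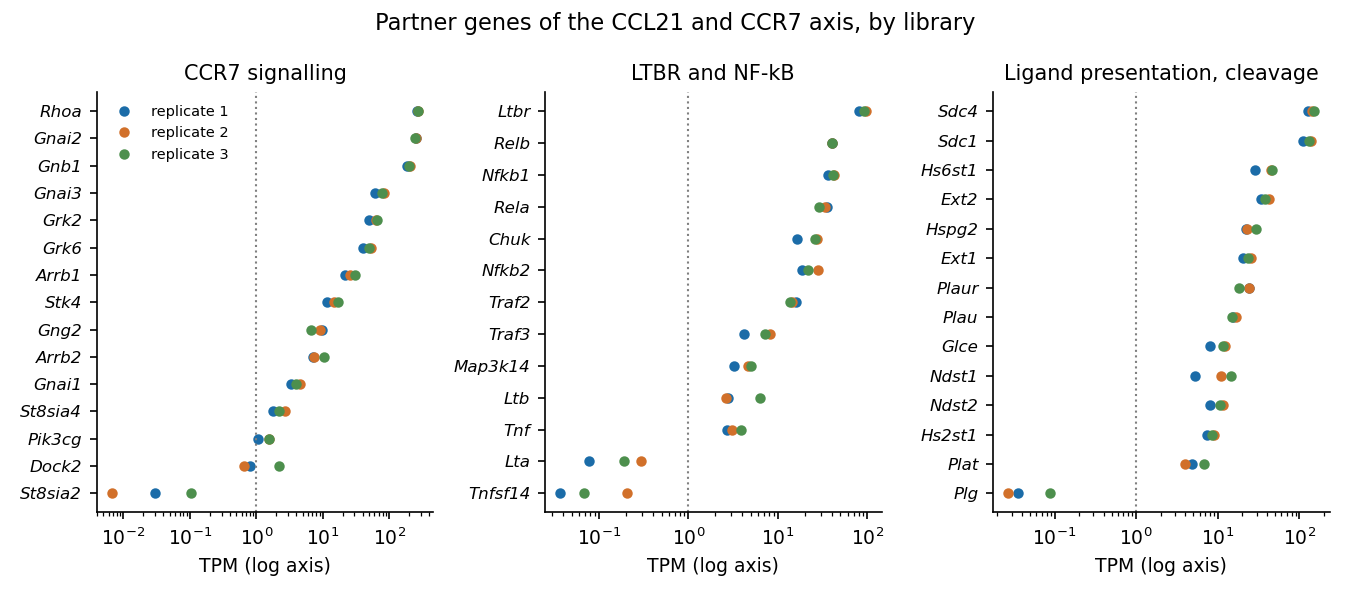
TPM (log axis) of the partner genes of CCR7 signalling, of the LTBR and NF-kB pathway, and of CCL21 presentation and cleavage, with a point for each of the 3 libraries and a dotted line at 1 TPM. In all 3 libraries, Plg, Lta, Tnfsf14 and St8sia2 stay below 1 TPM, and Dock2 passes it in replicate 3 only.

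Genes with the most similar pattern over the 3 libraries were found by the root mean square difference of log2(TPM + 1), centred on each gene's mean, among 8435 genes with a mean of 10 TPM or more. Nearest to the summed CCL21 copies were Snora61 at 0.0168, Ecscr at 0.0874, Lcn2 at 0.0979, Gm3219 at 0.104 and Gpihbp1 at 0.105, and 3 genes lay within 0.1. Snora61 is a small nucleolar RNA, Ecscr an endothelial surface protein gene, Lcn2 a gene of an iron-binding defence protein and Gpihbp1, also on the blood endothelial list, the gene of the capillary anchor of lipoprotein lipase. The median distance to the copies was 0.230 for 10 lymphatic genes, 0.677 for 8 epithelial genes and 0.603 for all genes compared.

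Nearest to Ccl19 were Dmwd (0.00464), Msto1 (0.0115) and Ushbp1 (0.0123), with 258 genes within 0.1. Nearest to Ccr7 were Lcp1 (0.0179), an actin-bundling gene of leukocytes, Car4 (0.0318) and H2-DMb1 (0.0446), an antigen presentation gene, with 9 genes within 0.1. Nearest to Ackr4 were Kidins220 (0.00219), Thrap3 (0.00405) and Psme3 (0.00441), with 2029 genes, or 24.1%, within 0.1. The pattern of Ackr4 on this scale was thus a common one in these libraries. Its median distance was 0.150 for epithelial, 0.498 for lymphatic and 0.677 for fibroblast genes, against 0.169 for all genes compared. Over 3 libraries such distances only describe. For Ccr7, Ackr4 and Ccl19 the added 1 TPM shrinks their own variation, most for Ccr7.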

How the data were processed

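RNA-seq of 3 libraries of sorted lymphatic endothelial cells was analysed from 1 table per library. Values are TPM computed by the authors, per the file headers. The submitters' processing notes name mm10, Cell Ranger 6.0.1 and HTSeq without their roles. How TPM was computed, and from which annotation, is not given in the sources used here. TPM keeps no depth, so no counting intervals were computed. Depth was estimated from regular steps in the low values of 2315 genes with a single transcript of over 1000 bases, as fragments per TPM and 1000 effective bases. The strength of the steps (a phase score, at most 1) ran from 0.583 to 0.597 over the libraries, and from 0.0929 to 0.115 when lengths were shuffled. The estimate and the pattern search were tested on simulated data. The genes and the lists were chosen with earlier results of these data known. The series has 1 group, so there is no test. The genes named are the 5 described, all partner and locus genes, the highest 5 of other lists where a result turns on them, and the 5 or 3 most similar in pattern; Gm13308, Gm2023, Ackr2 and Ackr3 were added after values were seen, and 1 gene of the B cell list is not reported here. The 85 ribosomal protein genes, a pseudocount of 0.1 and other TPM thresholds entered alternatives. Sequences come from RefSeq GRCm38.p6 and GENCODE M21, the assembly of mm10. Tools were Python 3.11.15, numpy 2.4.6, pandas 2.3.3 and matplotlib 3.10.9.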

Additional observations from a re-analysis of the deposited data

How the results depend on the processing

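Leaving out each replicate in turn moved each of the 6 levels and ratios by less than 1 SD between libraries. This holds for any 3 values, so it is no test of stability and the ranges only describe. The summed copies ranged from 8059 to 12122 TPM, the log2 ratio of Gm1987 to Gm13304 from 1.70 to 1.73, Ccl19 from 4.13 to 5.23 TPM, Ackr4 from 2.78 to 3.44 TPM and Ccr7 from 0.0972 to 0.626 TPM. The log2 ratio of the copies to the lymphatic median ranged from 6.88 to 7.14, and the count of partner genes stayed at 37. That count was 38 with a threshold of 0.5 TPM or on the mean, and 29 with 5 TPM. Of 16 other alternatives, 5 moved a level or ratio by 1 SD or more. TPM rescaled without ribosomal protein genes gave 5.94 TPM for Ccl19 and 3.79 TPM for Ackr4, by construction, since it multiplied every gene by 1.28, 1.24 and 1.22 in replicates 1, 2 and 3. The log2 ratio to the lymphatic median was 7.67 without the sort markers in the list, 6.63 with Gm1987 alone and 4.92 with Gm13304 alone, since fewer list genes or copies entered. No paired analysis was possible because the series has 1 group. The handling of shared reads and the lengths used, neither of which is given, limit the single values of the copies. Depth is only estimated, and the low fragment estimates limit Ccr7.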

Other observations

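Genes of lymphoid stroma and of vessels that recruit lymphocytes did not share a pattern over the libraries. Madcam1, the mucosal vessel ligand of lymphocyte integrins, stood at 3.30, 1.06 and 11.4 TPM in replicates 1, 2 and 3, and Bst1 at 0.288, 0.187 and 1.96 TPM. Cxcl13, the B cell chemokine of lymphoid stroma, ran the other way at 2.23, 1.15 and 0.315 TPM. Ch25h, whose enzyme starts the synthesis of an oxysterol that guides B cells, stood at 9.08, 6.11 and 4.64 TPM and Icam1 at 23.6, 20.6 and 14.3 TPM, both lowest in replicate 3 like the CCL21 copies. Tnfsf11, the RANKL gene, was listed at 0 in replicates 2 and 3. Of the 9 genes of this list, which includes Ltbr, 6 reached 1 TPM in all libraries, against 53.4% of all genes.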
